A study of Mus musculus with 42 samples.

Results

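Gdf3 and St18 were followed mouse by mouse in the livers of 42 female APOE*3-Leiden mice, together with the genes whose levels varied with theirs. Both were selected on their rise in mice fed a Western-type diet (WTD) as compared to mice on chow. That rise is therefore described here and carries no test, whereas the effect of atorvastatin and the variation among WTD-fed mice were tested. The WTD mice of the selection are also the reference for atorvastatin. Selection for a high WTD level can thus tilt that comparison toward a fall. Gdf3 and St18 are 2 of the 15574 genes that passed the filter on low counts, of 54446 genes in the count table. All mice carried the transgene for human APOE*3-Leiden, an apolipoprotein E variant that slows the clearance of lipoprotein remnants, so that no group is a wild type. The 10 Chow mice were kept on a maintenance diet and served as the reference. The 16 WTD mice were 8 to 14 weeks old at the start and ate a semi-synthetic diet that held 1% cholesterol, 40.5% sucrose and 15% cocoa butter, to which 0.05% sodium cholate was added from week 22. The 16 WTD+Atorvastatin mice came from the same age range and ate the same diet, cholate included. Both WTD-fed groups first had a run-in of 3 weeks on the diet without the drug, and weeks count from its end. For the treated group atorvastatin was then mixed in at 3 mg/kg/day and, from week 5, at 4.5 mg/kg/day. Livers of all groups were taken at week 32. The labels do not give the age of the Chow mice, and they number Chow mice with another prefix than WTD-fed mice, so that whatever the prefix stands for cannot be told apart from the diet.

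Gdf3, growth differentiation factor 3, is a secreted ligand of the TGF-beta superfamily that is best known from the early embryo and from pluripotent stem cells. Like nodal, it signals through activin receptors with the help of a coreceptor of the Cripto family, which leads to phosphorylation of Smad proteins in the receiving cell, and it has also been described as an inhibitor of BMPs and as a product of macrophages in muscle and fat. St18, also called MYT3, is a zinc finger transcription factor of the myelin transcription factor family, known from neurons and pancreatic endocrine cells, and it is not a classical liver gene. On the GRCm38 build, Gdf3 (ENSMUSG00000030117.5) occupies positions 122605403 to 122610087 of chromosome 6, minus strand, and its exons cover 2423 bp. St18 (ENSMUSG00000033740.17) occupies positions 6487231 to 6860940 of chromosome 1, plus strand, with exons of 6464 bp in all. No exon of another annotated gene overlapped those of either gene.

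The libraries held between 15661381 and 36224054 counted read pairs, with medians of 20405093.5 in Chow, 21095129 in WTD and 18180048.5 in WTD+Atorvastatin mice. In 8 libraries, 3 of Chow, 4 of WTD and 1 of WTD+Atorvastatin mice, over 20% of the genes found at 1 to 2 CPM (counts per 1000000 counts of the library) in their own group had no count at all, up to 59.7% in one Chow library. Such libraries hold less information on scarce transcripts, and results were therefore also computed without them. A gene was called changed when its Benjamini-Hochberg adjusted p in edgeR's quasi-likelihood test was under 0.01. By that rule 5224 genes differed between WTD and Chow mice, 2729 higher and 2495 lower on WTD, and 1106 differed between WTD+Atorvastatin and WTD mice, 754 higher and 352 lower with the drug. The balance of the second comparison depended on the scaling, with 680 genes higher and 649 lower in DESeq2, 582 higher and 479 lower with RLE factors, and 719 higher and 642 lower when the Chow mice were left out of the fit.

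Gdf3 was close to absent in the livers of Chow mice and was readily detected in every WTD-fed mouse. Levels are given as CPM after scaling by TMM factors, which even out differences in library composition. In Chow mice Gdf3 ranged from 0 to 1.02 CPM with a median of 0.300, and the 10 libraries together held 63 counts. It had no count in 4 of the 10 Chow mice, where 3 counts would have given 0.152 to 0.199 CPM, and 2 of those 4 libraries were among the 8 that lacked scarce transcripts. In WTD mice the lowest value was 3.69, the median 13.7 and the highest 28.7 CPM. The groups did not overlap, since the lowest WTD mouse stood 3.60 times as high as the highest Chow mouse. As means, Gdf3 amounted to 0.318 ± 0.342 CPM in Chow mice (SD, n = 10) and 14.4 ± 6.54 CPM in WTD mice (SD, n = 16), a ratio of 45.4. By the selection both genes were among the 33.5% of all genes called between WTD and Chow. The fitted log2 fold change was 5.45 with a standard error of 0.42. Over all genes tested, 3.40% had every WTD mouse above every Chow mouse.

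St18 showed the same contrast on a lower level. Chow mice ranged from 0 to 0.474 CPM with a median of 0, and 7 of the 10 had no count, where 3 counts would have given 0.0947 to 0.199 CPM. Among those 7 libraries were the 3 Chow libraries that lacked scarce transcripts. WTD mice ranged from 1.78 to 18.8 CPM with a median of 6.24, again without overlap, the lowest WTD mouse being 3.75 times as high as the highest Chow mouse. The means were 0.0984 ± 0.186 CPM in Chow (SD, n = 10) and 8.28 ± 5.45 CPM in WTD mice (SD, n = 16), a ratio of 84.1 that rests on only 19 counts in all Chow libraries. The fitted log2 fold change was 6.30 with a standard error of 0.64. Among the 10931 genes that averaged 100 or more counts per library, the fitted rise of St18, with a mean of 107.6 counts, was the second and that of Gdf3 the third in size, behind Gpnmb, a glycoprotein of lipid-laden macrophages, and among all 15574 genes tested their ranks were 41 and 60. The ranks describe the rise on which both were selected. Without the 8 libraries, Gdf3 was 0.372 ± 0.357 CPM in 7 Chow mice (SD) and 14.8 ± 6.38 CPM in 12 WTD mice (SD), and St18 was 0.141 ± 0.212 and 7.82 ± 5.19 CPM (SD) in the same mice. Relative to exon length Gdf3 was the more abundant of the pair, at 5.95 ± 2.70 CPM per kb as compared to 1.28 ± 0.843 CPM per kb of St18 in WTD mice (SD, n = 16).

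**Figure D1:**
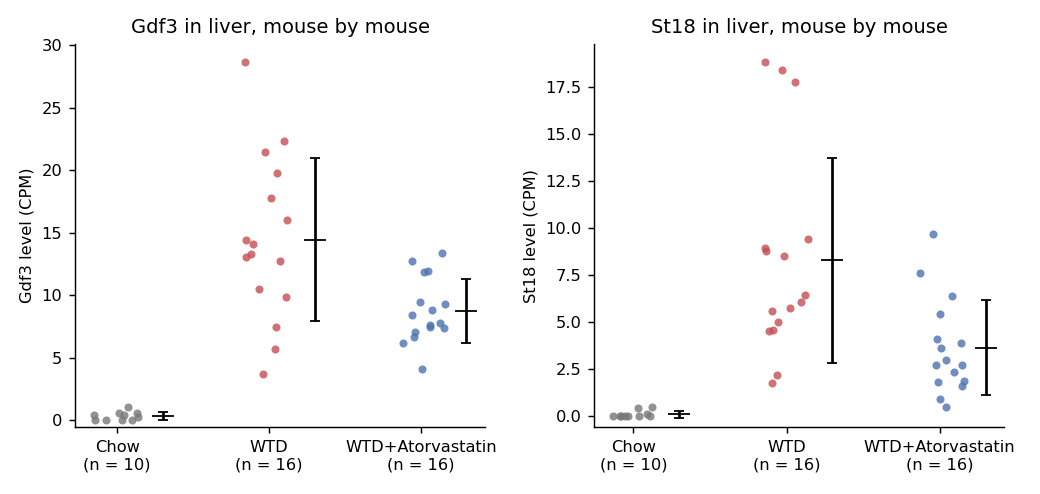
Levels of Gdf3 (left) and St18 (right) in liver in CPM, 1 point per mouse, for Chow (n = 10), WTD (n = 16) and WTD+Atorvastatin (n = 16), with the mean and SD as a bar beside each group. Chow mice lie at or near 0 and do not exceed 1.02 CPM, WTD mice reach 28.7 CPM of Gdf3 and 18.8 CPM of St18, and treated mice lie mostly in the lower part of the WTD range.

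Mice that received atorvastatin showed lower levels of both genes than WTD mice, but far above those of Chow mice, and neither difference from WTD mice passed the threshold of 0.01. The WTD mice are those of the selection, so this comparison and its p-values are not free of it. Gdf3 ranged from 4.09 to 13.4 CPM with a median of 8.06 in treated mice, and its mean was 8.74 ± 2.58 CPM (SD, n = 16), or 0.606 of the WTD mean. All 16 treated mice lay below the WTD median, which 3.13% of all genes tested showed, and 8 of the 16 WTD mice lay above every treated mouse. No treated mouse lay below the lowest WTD mouse, so that the treated mice filled the lower part of the WTD range. The coefficient of variation was 29.5% in treated and 45.3% in WTD mice. The log2 fold change of WTD+Atorvastatin as compared to WTD was -0.72 with a standard error of 0.26 (edgeR, adjusted p = 0.060). By comparison, 7.10% of all genes tested were called in this comparison, and 2.26% were called lower.

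St18 ranged from 0.477 to 9.68 CPM with a median of 2.87 in treated mice, with a mean of 3.63 ± 2.52 CPM (SD, n = 16), or 0.439 of the WTD mean. Of the 16 treated mice 13 lay below the WTD median and 3 below every WTD mouse, whereas 3 WTD mice lay above every treated mouse. The lowest treated mouse, at 0.477 CPM, was next to the highest Chow mouse at 0.474 CPM. The log2 fold change was -1.18 with a standard error of 0.38 (edgeR, adjusted p = 0.032). St18 did pass 0.01 in DESeq2 (log2 fold change -1.22, adjusted p = 0.0091), in limma-voom (-1.19, adjusted p = 0.00093) and in edgeR without the Chow mice (-1.19, adjusted p = 0.0095), and Gdf3 did so in limma-voom (-0.58, adjusted p = 0.0046) and in edgeR without the Chow mice (-0.73, adjusted p = 0.0072). Those fits also called more genes. Of all 15574 genes, DESeq2 called 1329 and limma-voom 3145, as compared to 1106 in the main fit. Without the Chow mice edgeR called 1361 of 14595. A two-sided permutation test of the mean log2 CPM, 1 test per gene, gave a difference of -0.62 for Gdf3 (p = 0.0090) and -1.24 for St18 (p = 0.0018). Leaving out each mouse in turn, the adjusted p in edgeR ranged from 0.0295 to 0.132 for Gdf3 and from 0.0126 to 0.0737 for St18. The log2 ratio of St18 to Gdf3 was lower by 0.62 in treated mice, a difference that the permutation test did not separate from 0 (p = 0.15).

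The treated mice were also set beside the same Chow mice that served the WTD comparison, so the pair of contrasts is not independent. Mean levels in treated mice were 27.5 times those of Chow mice for Gdf3 and 36.9 times for St18. The fitted log2 fold changes were 4.73 (SE 0.41) and 5.12 (SE 0.62). In order of level, Gdf3 and St18 were lowest in Chow, followed by WTD+Atorvastatin and WTD, of which the last 2 groups overlapped in both genes. Across the genes tested, 2.13% had all mice of both WTD-fed groups above all Chow mice, and Gdf3 and St18, which were selected on this rise, were among them.

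Although both genes were absent or scarce on chow and present on WTD, they did not rank the mice within a group alike. In WTD mice the Spearman correlation of their log2 CPM was -0.16 (permutation p = 0.54, adjusted p = 0.54) and Pearson's r was -0.24 (permutation p = 0.38, adjusted p = 0.38), or -0.30 without the 2 mice farthest from the median of Gdf3. The same mouse, WTD replicate 2, was highest for both, at 28.7 CPM of Gdf3 and 18.8 CPM of St18. Other mice were at opposite ends. WTD replicate 10 was the third highest for Gdf3 at 21.5 CPM and the lowest for St18 at 1.78 CPM, and its library was one of the 8 that lacked scarce transcripts. WTD replicate 13, whose library lacked few, had 19.8 CPM of Gdf3, the fourth highest value, and 2.18 CPM of St18, the second lowest. Conversely, WTD replicate 16 was lowest for Gdf3 at 3.69 CPM and the fourth for St18 at 9.39 CPM, in another of the 8 libraries, and WTD replicate 14 had 7.48 CPM of Gdf3 and 17.7 CPM of St18, the third highest value.

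In treated mice rho was 0.33 (permutation p = 0.22, adjusted p = 0.44) and r was 0.51 (permutation p = 0.046, adjusted p = 0.093), with adjustment over the 2 groups. This relation rested on the extreme mice, as r was 0.073 without the 2 farthest from the median of Gdf3. WTD+Atorvastatin replicate 9 was the lowest for both genes, at 4.09 CPM of Gdf3 and 0.477 CPM of St18. The highest St18 value of 9.68 CPM was found in replicate 1, which was the sixth for Gdf3 at 9.28 CPM, and the highest Gdf3 value of 13.4 CPM in replicate 13, which was the third for St18 at 6.35 CPM. Without the 8 libraries rho was 0.084 in 12 WTD mice and 0.34 in 15 treated mice. Library sizes without TMM factors, where both genes carry the factor left out, gave a rho of 0.63 in treated mice (permutation p = 0.011).

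**Figure D2:**
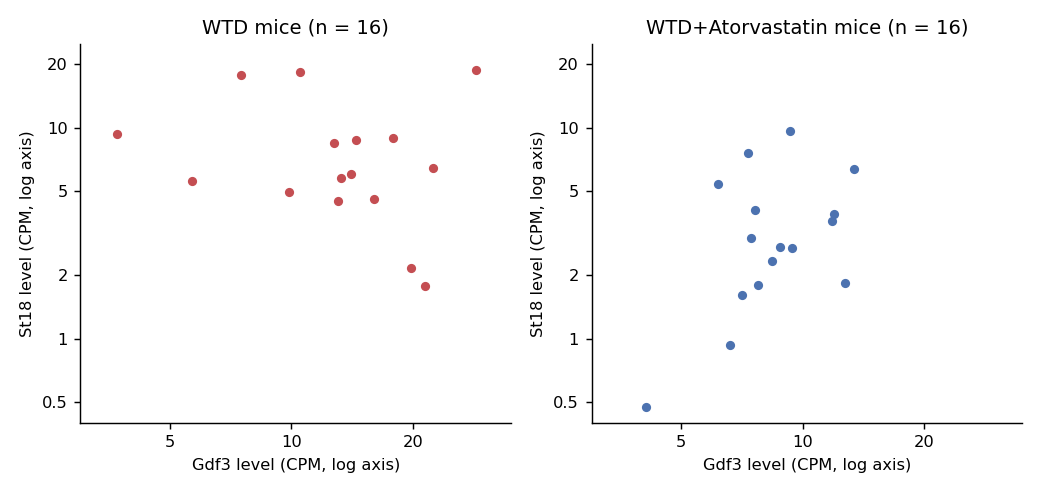
St18 against Gdf3, both in CPM on log axes, 1 point per mouse, for the 16 WTD mice (left) and the 16 WTD+Atorvastatin mice (right). The WTD points form no line (rho -0.16), with the mouse at 21.5 CPM of Gdf3 having the lowest St18 level of 1.78 CPM, and the treated points (rho 0.33) include 1 mouse that is lowest on both axes.

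To find the genes that covaried with each of them, all genes that averaged 50 or more counts were ranked by their Spearman correlation in the 16 WTD mice, and the 12 highest and 4 lowest were then examined in the 16 treated mice, which the choice had not used. For Gdf3 the 12 highest were Suco, Chchd6, Zfp462, Mmgt2, Mamdc2, Ramp1, Rpl12, Gm26782, Snrpf, Sesn3, C1qtnf2 and Arpin, with rho from 0.93 for Suco to 0.78 for Arpin. These hold no evident common function, ranging from Rpl12, a ribosomal protein, and Snrpf, a component of the spliceosome, to Ramp1, a coreceptor for calcitonin gene-related peptide, and Sesn3, a stress-induced sestrin. In treated mice their rho with Gdf3 had a median of -0.063 and ranged from -0.36 for Mamdc2 to 0.43 for Zfp462, with 4 of the 12 above 0 and none above 0.5. The median over all genes was 0.0059 in the same mice. Over all genes, 4.69% had a rho above 0.5 with Gdf3 in WTD mice and 2.42% in treated mice. The 4 lowest were Ogdh and Pgm1, which are enzymes of the citric acid cycle and of glycogen metabolism, the antisense transcript Gm26588 and Bsdc1, with rho from -0.89 to -0.86 in WTD mice and a median of -0.088 in treated mice, where 3 of the 4 remained below 0. None of the 16 passed the permutation test in treated mice, adjusted over the 32 genes chosen for the pair, the lowest adjusted p being 0.55 for Zfp462.

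For St18 the 12 highest were Fam213b, Clec1b, Rbms3, Vat1, St6galnac3, 2810025M15Rik, Card19, 1810032O08Rik, Fam98c, Plekhg1, Gm12909 and Zeb1, with rho from 0.85 to 0.77. In treated mice their rho with St18 had a median of 0.14 and ranged from -0.39 for Fam98c to 0.79 for Vat1, with 9 of the 12 above 0 and 1 above 0.5. Over all genes, 2.97% had a rho above 0.5 with St18 in WTD mice and 10.9% in treated mice. The 1 above 0.5, Vat1, which codes for a vesicle membrane protein, was the only one of the 32 with an adjusted p under 0.05, at rho 0.79 (permutation p = 0.00049, adjusted p = 0.0157) and r 0.74 (adjusted p = 0.0205), or 0.74 without the 2 farthest mice. It was one of 85 genes with a rho above 0.5 in both groups (0.546%). Vat1 itself was called higher on WTD, with means of 37.2 CPM in Chow, 124 CPM in WTD and 95.8 CPM in treated mice (edgeR, diet log2 fold change 1.74, adjusted p = 7.88e-16). Clec1b, a C-type lectin receptor that is also found on Kupffer cells, had a rho of 0.47 with St18 in treated mice (permutation p = 0.068, adjusted p = 0.54). Of the 4 lowest, Rnf144a, Ppp4r3b, Trmt10a and Wasl, with rho from -0.89 to -0.82 in WTD mice, Trmt10a had a rho of -0.60 in treated mice (permutation p = 0.016, adjusted p = 0.26). Choosing the 12 genes in treated mice and examining them in WTD mice gave a median rho of 0.012 for Gdf3 and 0.33 for St18, and for neither gene did that choice share any of the 12 with the first. Choosing them without the 8 libraries shared 2 of the 12 for Gdf3 and 0 for St18, and in the 15 treated mice left the median rho was 0.098 for Gdf3, with 8 of 12 above 0 and 0 above 0.5, and 0.39 for St18, with 11 of 12 above 0 and 4 above 0.5.

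**Figure D3:**
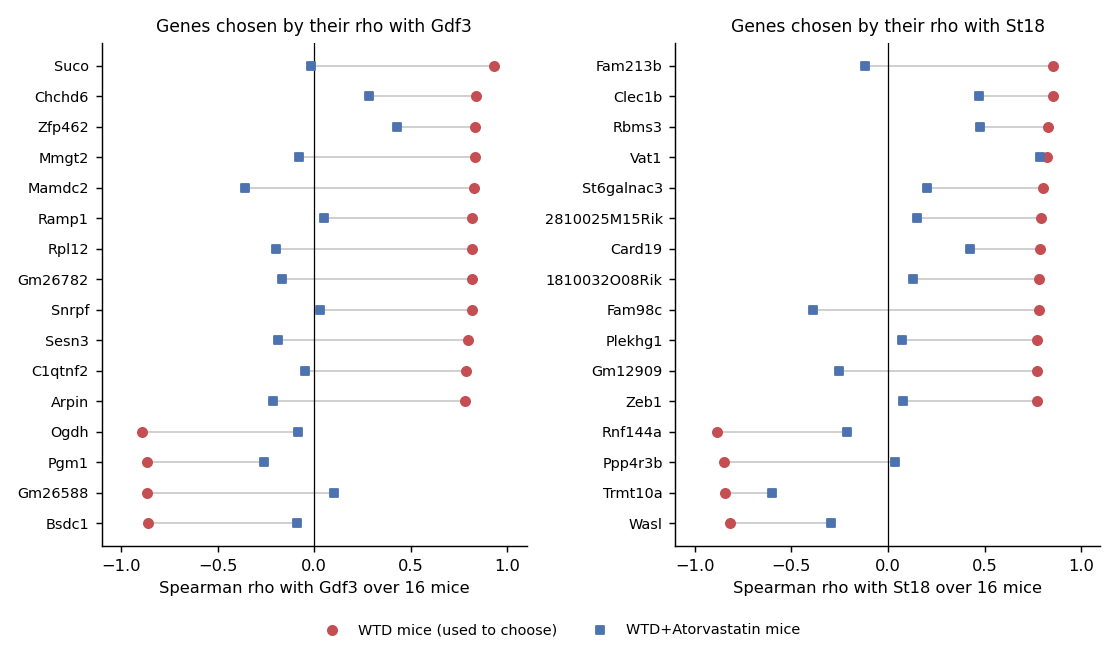
Spearman rho with Gdf3 (left) and with St18 (right) over 16 WTD mice (circles) and over 16 WTD+Atorvastatin mice (squares), for the 12 genes with the highest and the 4 with the lowest rho in WTD mice. The circles are at the extremes because the genes were chosen there, most squares lie around 0, and Vat1 is at 0.79 with St18 in the treated mice.

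A second approach fitted a slope on each gene's own log2 CPM, centred within its group, for all other genes over the 32 WTD-fed mice. With Gdf3 no gene was called in edgeR (0.00%), although 1814 genes had an unadjusted p under 0.05, and St18 was not related to it (adjusted p = 0.97). With St18, 22 of 15573 genes were called (0.141%), 18 with a positive and 4 with a negative slope, and 2213 had an unadjusted p under 0.05. Apart from Vat1 and Cd5l the genes named in this paragraph lie outside the rule for naming genes and were chosen after their values were seen. A slope gives the log2 change of a gene per log2 unit of St18, and it was 0.26 for Ifi30, a lysosomal thiol reductase of antigen-presenting cells (edgeR, adjusted p = 0.0016), and 0.49 for the lymphoid transcription factor Pou2f2 (adjusted p = 0.0035). Other genes with positive slopes were the myeloid genes Cybb, a subunit of the phagocyte oxidase, Itgb2, a leukocyte integrin, Spi1, which codes for the transcription factor PU.1, Sirpa, Irf5, Hcls1 and Cd5l, along with Cd44, Arhgdia, Ptpn1, Cyth4, Ucp2, Ly9, Rap2b, Vat1 and Abr. The 4 with negative slopes were Plekhb1, Fbxo3, Rnf125 and Abcb11, the bile salt export pump of hepatocytes, whose slope was -0.18 (edgeR, adjusted p = 0.0055). Without the 8 libraries, 3 genes followed Gdf3, all with negative slopes, and 67 followed St18, 51 positive and 16 negative.

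The lists of cell type markers showed how the rest of the liver differed in the same mice. Among the macrophage markers 13 of 13 tested were higher on WTD than on chow and 9 of 13 were lower with atorvastatin, as compared to 17.5% of all genes called higher on WTD and 2.26% called lower with the drug. Their median log2 fold change was 2.37 on WTD and -0.55 with atorvastatin, where the medians of all genes were 0.027 and 0.0016. The summed level of the 14 listed markers ranged from 433 to 577 CPM in Chow, from 1688 to 3736 CPM in WTD and from 1373 to 2535 CPM in treated mice, with medians of 517, 2870 and 1744 CPM, and Itgam alone of the 14 had no count in any mouse, a gene that overlaps another on the same strand, so that its reads may have been set aside as ambiguous. The most abundant of them, lysozyme 2 (Lyz2), had means of 99.5, 1098 and 554 CPM in Chow, WTD and treated mice. The order of the groups was thus that of Gdf3 and St18, and in bulk liver a smaller number of cells of a type and less RNA per cell cannot be told apart.

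St18 followed the summed macrophage markers closely in treated mice. There rho was 0.91 (permutation p = 2e-05, adjusted p = 0.00088) and r was 0.91 (permutation p = 1e-05, the smallest that the resamples can give, adjusted p = 0.00044), or 0.87 without the 2 mice farthest from the median of St18. In WTD mice rho was 0.46 (permutation p = 0.074, adjusted p = 0.23) and r was 0.36 (adjusted p = 0.34), or 0.35 without the 2 farthest mice. The difference between the rho of the 2 groups was -0.45 (permutation p = 0.031, adjusted p = 0.062). For Gdf3, rho with the same sum was 0.34 in WTD mice (permutation p = 0.20, adjusted p = 0.43) and 0.46 in treated mice (permutation p = 0.072, adjusted p = 0.23), and r was 0.47 (adjusted p = 0.19) and 0.51 (adjusted p = 0.16), both of which rested on extreme mice and were 0.12 and 0.27 without the 2 farthest. The adjusted values of these correlations are over the 44 relations of both genes with 11 cell type lists in 2 groups. That of the difference between the groups is over 2 tests, 1 per gene. St18 of treated mice also correlated with the TMM scaling factor of the library (rho 0.86, permutation p = 0.00011, adjusted p = 0.00176 over 16 relations with technical measures, and r 0.74, adjusted p = 0.0123, or 0.73 without the 2 farthest mice). With library sizes free of that factor, rho of St18 with the macrophage sum was 0.94 in treated mice. Both measures then carry the factor left out, so that value cannot show the factor's part in the relation, which was not tested. Without the 8 libraries rho of St18 with the macrophage sum was 0.91 in treated and 0.62 in WTD mice.

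Relations with the other cell type lists are given without a test of differences between lists. The summed hepatocyte markers, of which albumin (Alb) is by far the most abundant, were negatively correlated with St18 in treated mice, with rho -0.83 (permutation p = 0.00011, adjusted p = 0.0024) and r -0.73 (adjusted p = 0.0173), or -0.71 without the 2 farthest mice. Gdf3 in WTD mice had a rho of -0.63 with the hepatocyte sum (permutation p = 0.011, adjusted p = 0.058) and an r of -0.64 (adjusted p = 0.057), or -0.57 without the 2 farthest mice. With the monocyte sum its rho was -0.56 (permutation p = 0.027, adjusted p = 0.13) and r was -0.63 (adjusted p = 0.057), or -0.43 without those mice. Leaving out the same 2 mice brought r of Gdf3 to 0.61 with stellate cell genes and 0.60 with cholangiocyte genes, from 0.37 and 0.47 in all 16. The monocyte sum was dominated by fibronectin (Fn1), which had a rho of -0.59 with Gdf3 in WTD mice, and Vcan had -0.11. The other monocyte markers Ccr2, Ly6c2, Cx3cr1, Chil3 and Plac8 had 0.55, 0.52, 0.51, 0.15 and 0.11. Ly6c2, Chil3 and Vcan are named here after their values were seen. In WTD mice Gdf3 had a rho of 0.59 with the TMM factor (permutation p = 0.018, adjusted p = 0.095) and of 0.64 with the share of reads outside exons (permutation p = 0.0093, adjusted p = 0.075), and r was 0.64 and 0.57, and the part of either in the relations of Gdf3 was not tested. The markers of lipid-associated macrophages, which include Plin2, Lpl, Spp1 and Gpnmb, had a rho of 0.68 with St18 in treated mice (permutation p = 0.0047, adjusted p = 0.058), with r 0.75 (adjusted p = 0.0143) or 0.64 without the 2 farthest, and 0.50 with Gdf3 in WTD mice (permutation p = 0.052, adjusted p = 0.21), with r 0.56 (adjusted p = 0.12) or 0.54. The most abundant of them, Plin2, was not called on WTD, with means of 606, 665 and 663 CPM in Chow, WTD and treated mice (edgeR, adjusted p = 0.38). Plin2 had a rho of -0.06 with St18 in treated mice and of -0.59 with Gdf3 in WTD mice. Of the 15 markers, 12 exceeded 0.5 with St18 in treated mice and 3 with Gdf3 in WTD mice. In treated mice rho of St18 was 0.67 with stellate cell and fibrosis genes, 0.64 with cholangiocyte and 0.64 with neutrophil markers, each with an adjusted permutation p of 0.058. The corresponding r was 0.67 (adjusted p = 0.038) for stellate cell genes, 0.68 (adjusted p = 0.038) for cholangiocyte and 0.49 (adjusted p = 0.18) for neutrophil markers, or 0.53, 0.49 and 0.67 without the 2 farthest mice. The sum of monocyte markers, dominated by fibronectin (Fn1), was at rho -0.65 with the same adjusted p of 0.058, and r was -0.62 (adjusted p = 0.057) or -0.64 without the 2 farthest mice. Fn1 itself had a rho of -0.64 with St18 in treated mice. The other markers of that list, Cx3cr1, Ccr2, Ly6c2, Plac8, Chil3 and Vcan, had 0.62, 0.35, 0.29, 0.27, 0.15 and 0.05. Kupffer cell markers gave r 0.66 with St18 in WTD mice (permutation p = 0.0051, adjusted p = 0.038), where rho was 0.30 (adjusted p = 0.45) and r was 0.51 without the 2 farthest mice. The most abundant of them differed, with rho 0.50 for Cd5l, 0.31 for Vsig4, 0.16 for Slc40a1 and -0.24 for Clec4f, and 0 of 8 exceeded 0.5. Marco, named here after its values were seen, ranged from 4.17 to 546 CPM in WTD mice.

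The level of each gene was also set against the macrophage sum. As the pair was selected on its rise over Chow mice, the values of the 3 groups are a description only. Per 1000 CPM of macrophage markers, Gdf3 had a median of 0.590 CPM in Chow, 4.90 CPM in WTD and 4.68 CPM in treated mice. St18 had medians of 0, 2.53 and 1.66 CPM per 1000 CPM in the same order. Between treated and untreated mice the log2 of this ratio differed by 0.022 for Gdf3 (permutation p = 0.91, adjusted p = 0.91) and by -0.60 for St18 (permutation p = 0.068, adjusted p = 0.14).

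**Figure D4:**
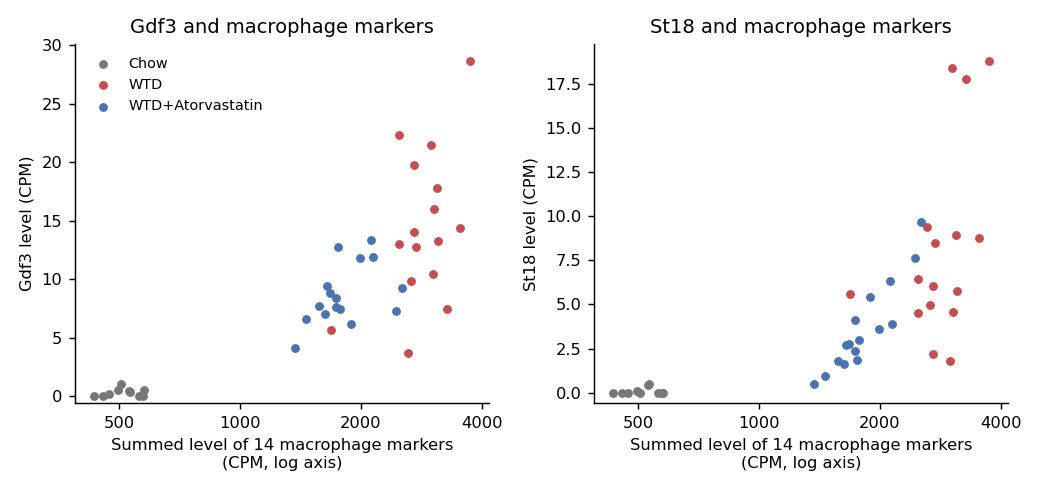
Level of Gdf3 (left) and St18 (right) in CPM against the summed level of 14 macrophage markers in CPM on a log axis, 1 point per mouse in Chow, WTD and WTD+Atorvastatin. Chow mice form a separate cluster at 433 to 577 CPM of markers, and within the treated mice St18 rises along the marker sum (rho 0.91).

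Counts for the other cell type lists give the setting of these relations. On WTD, 14 of 15 markers of lipid-associated macrophages, 8 of 8 of cholangiocytes, 10 of 14 of stellate cells and fibrosis, 4 of 7 of monocytes, 3 of 4 of neutrophils and 4 of 8 of Kupffer cells were higher, and 9 of 9 hepatocyte markers were lower, where 17.5% of all genes were called higher and 16.0% lower. Among the Kupffer cell markers 1 was lower, the scavenger receptor Cd163, named here after its values were seen, with 10.2 CPM in Chow and 0.212 CPM in WTD mice (edgeR, log2 fold change -5.53, adjusted p = 2.74e-06). Of 9 sinusoidal endothelial markers, 4 were lower and 1 was higher on WTD. None of 8 T cell markers was called in edgeR in either comparison, where 1 had an unadjusted p under 0.05 in each, and 1 was called on WTD in DESeq2. Of 6 B cell markers Ighm was called lower on WTD, a call that rested on 1 Chow mouse at 1358 CPM, since the other 9 averaged 20.7 ± 7.44 CPM (SD) and the 16 WTD mice 29.8 ± 12.4 CPM (SD), and DESeq2 did not make it (log2 fold change 0.52, adjusted p = 0.084). With atorvastatin, 8 of 15 markers of lipid-associated macrophages and 4 of 14 of stellate cells and fibrosis were lower, and 6 of 9 hepatocyte and 3 of 9 sinusoidal endothelial markers were higher, where 2.26% of all genes were called lower and 4.84% higher. In the stellate cell list 1 marker was higher, Reln, named here after its values were seen (edgeR, log2 fold change 0.47, adjusted p = 0.00082). It was not called without the 8 libraries (0.39, adjusted p = 0.011). Clec4f, which marks resident Kupffer cells, was among the genes that were higher with the drug, at 294 CPM as compared to 191 CPM in WTD mice (edgeR, log2 fold change 0.62, adjusted p = 0.0047), but not without the 8 libraries (0.51, adjusted p = 0.042). Cd5l, a secreted protein of Kupffer cells, was lower with the drug, at 747 CPM as compared to 979 CPM (edgeR, -0.39, SE 0.08, adjusted p = 0.00071). None of the 9 listed markers of pancreatic islets, another site of St18 expression, passed the filter, and the islet sum did not exceed 0.238 CPM in any mouse.

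The remaining genes of the pathway of Gdf3 were read from lists of ligands, receptors, Smad proteins, inhibitors and target genes. Of 22 ligands tested, 7 were higher on WTD, among them Gdf3 by its selection, and 2 were lower, as compared to 17.5% and 16.0% of all genes, with a median log2 fold change of 0.60. Transforming growth factor beta 1 (Tgfb1), the main profibrotic member of the family, rose from 15.0 to 45.4 CPM (log2 fold change 1.61, SE 0.14), and Tgfb2 rose from 1.02 to 7.59 CPM (2.90, SE 0.49). Inhbb, which encodes the subunit of activin B, rose from 1.31 to 6.81 CPM (2.36, SE 0.35), and Gdf10 from 17.0 to 38.2 CPM (1.17, SE 0.15). Inhbc and Bmp2 were the 2 that were lower, named here after their values were seen. Nodal, which uses the same receptors, remained below 1 CPM on average, at 0.0836 CPM in Chow, 0.558 CPM in WTD and 0.357 CPM in treated mice (edgeR, diet adjusted p = 0.028), and Gdf1 had no count, although it overlaps Cers1 on the same strand and its reads may have been set aside as ambiguous. With atorvastatin Gdf10 was lower (log2 fold change -0.64, SE 0.12, adjusted p = 0.00029) and Bmp2 was higher, and no other ligand was called. Bmp2 was not called without the 8 libraries in either comparison (edgeR, log2 fold change -0.31, adjusted p = 0.044 on WTD and 0.37, adjusted p = 0.017 with atorvastatin), and Tgfb3 was called lower with the drug (-0.91, adjusted p = 0.0016).

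Among the receptors that Gdf3 is known to use, the type I receptor Acvr1b was present in all groups, with means of 15.0 CPM in Chow, 21.7 CPM in WTD and 23.0 CPM in treated mice, and it was higher on WTD (edgeR, log2 fold change 0.52, SE 0.15, adjusted p = 0.0039). The type II receptor Acvr2b was lower on WTD, with 5.10, 1.51 and 1.77 CPM in the same order (-1.75, SE 0.44, adjusted p = 0.00088). The other type II receptor, Acvr2a, had 19.0, 15.0 and 18.1 CPM and was not called (adjusted p = 0.046). Without the 8 libraries that lacked scarce transcripts Acvr2a was called lower on WTD (edgeR, log2 fold change -0.45, adjusted p = 0.0021). The alternative type I receptor Acvr1c, best known from fat, did not pass the filter, with 105 counts over all 42 mice. The coreceptor Cripto (Tdgf1) had 1 count in all libraries together and its relative Cfc1 had none. At this depth no coreceptor transcript was therefore detectable in liver, beyond that single count.

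In all, 6 of 11 receptors tested were higher on WTD (17.5% of all genes) and 1 was lower (16.0%), and none was called with atorvastatin in edgeR or DESeq2, although 6 had an unadjusted p under 0.05 in edgeR. Without the 8 libraries 5 receptors were higher and 2 lower on WTD, where 2951 and 2590 of 15877 genes were called. Large rises were seen for receptors for other ligands of the family, namely Acvrl1, a receptor of endothelial cells for BMP9 and BMP10, at 4.96 CPM in Chow and 19.5 CPM in WTD mice (log2 fold change 1.98), Tgfbr2 at 22.9 and 72.1 CPM (1.65) and Tgfbr1 at 22.1 and 50.8 CPM (1.20). Of the 6 Smad transducers, 1 was higher on WTD (17.5% of all genes), Smad3 (17.4 and 26.8 CPM, log2 fold change 0.63), and none was called with the drug in edgeR or DESeq2, with 0 at an unadjusted p under 0.05 in edgeR. Of 10 inhibitors 3 were higher on WTD (17.5% of all genes) and 1 was lower (16.0%). Those higher included the pseudoreceptor Bambi, at 5.87 and 14.5 CPM, and the follistatin relative Fstl3, which binds activins, at 0.851 and 2.99 CPM. Chordin (Chrd), a BMP antagonist, was lower at 12.8 and 6.58 CPM. Bambi was the only inhibitor called with atorvastatin, at 8.73 CPM (log2 fold change -0.73, SE 0.19, adjusted p = 0.0063). It missed the threshold without the 8 libraries (edgeR, -0.64, adjusted p = 0.0101), and Chrd was called higher instead (0.50, adjusted p = 0.0097).

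Of 9 genes that Smad proteins commonly induce, 4 were higher and none lower on WTD, as compared to 17.5% and 16.0% of all genes. None was called with atorvastatin in edgeR or DESeq2, and 2 had an unadjusted p under 0.05 in edgeR. Those higher on WTD were Pmepa1, which rose from 7.88 to 22.2 CPM (log2 fold change 1.49), the matrix protein Tgfbi from 86.0 to 180 CPM (1.06), and the Smad corepressors Skil from 13.7 to 26.3 CPM (0.94) and Ski from 53.1 to 64.5 CPM (0.28). These genes respond to many ligands of the family. Without the 8 libraries Ski was not called on WTD (edgeR, log2 fold change 0.21, adjusted p = 0.018). No other tested gene of the ligand, receptor, Smad, inhibitor and target lists had a rho above 0.5 with Gdf3 in both WTD-fed groups, as compared to 0.122% of all genes.

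**Figure D5:**
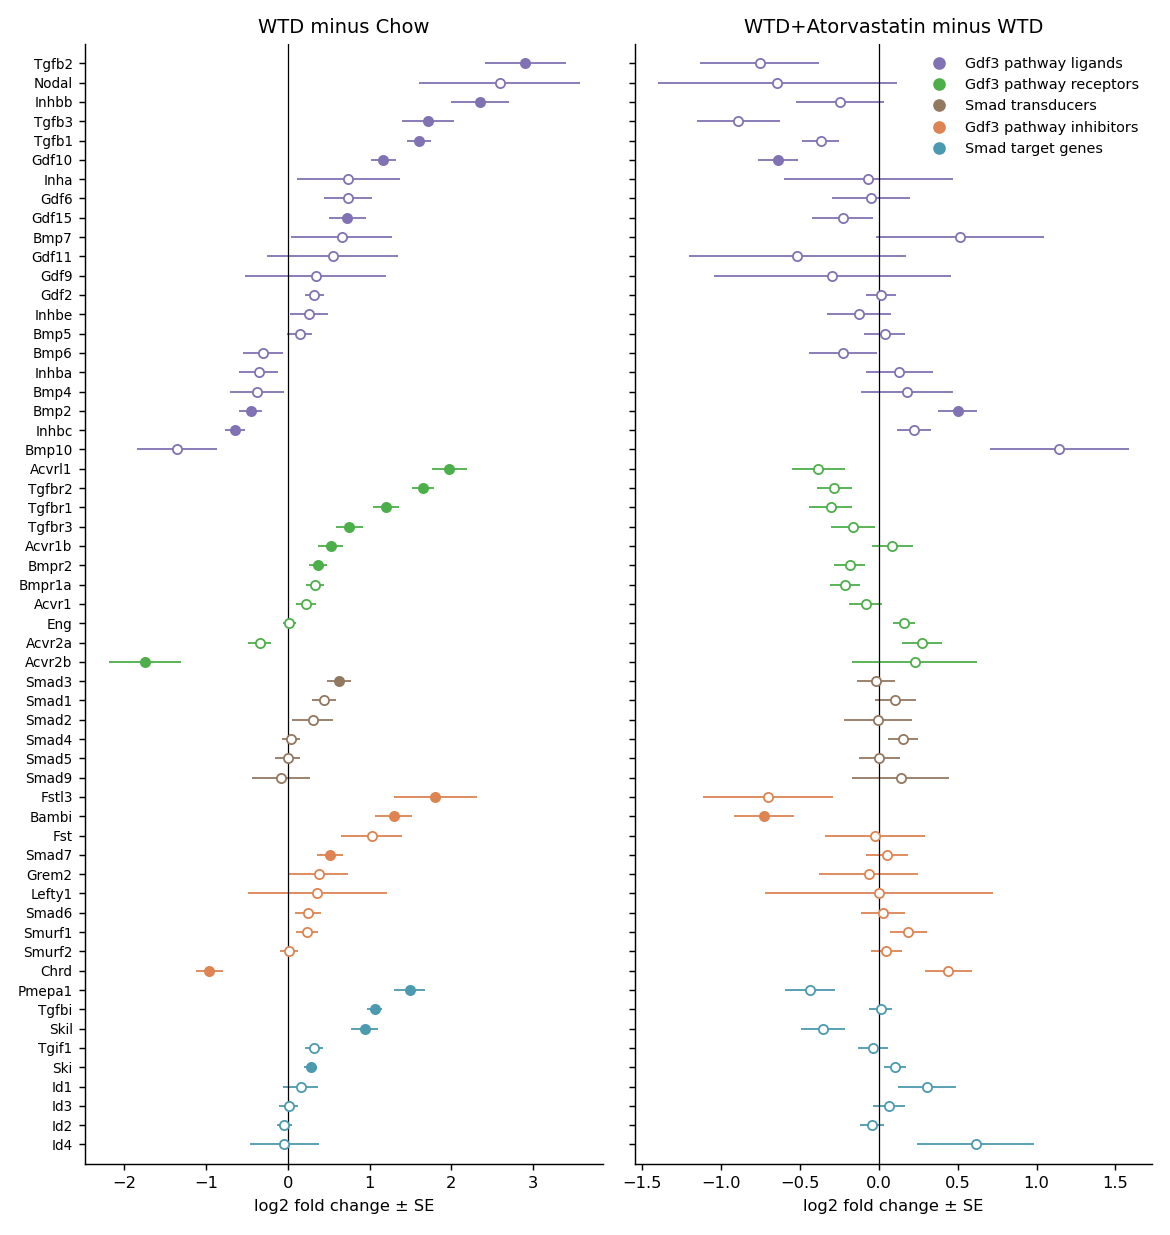
Fitted log2 fold changes with standard errors of the tested ligands, receptors, Smad transducers, inhibitors and Smad target genes, for WTD minus Chow (left) and WTD+Atorvastatin minus WTD (right), with filled symbols for genes called at an adjusted p under 0.01. Gdf3 itself, one of the tested ligands, is not drawn. On the left most filled symbols are to the right of 0, with Tgfb2 at 2.90, and on the right only Gdf10, Bmp2 and Bambi are filled.

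The relatives of St18 had few or no counts. Myt1 had no count in any mouse and Myt1l had 6 counts in all, so that St18 was the only member of its family with more than 6 counts in these livers. Of the 9 genes tested in the list of the family and the corepressors it works with, 3 were higher on WTD (17.5% of all genes), St18 by its selection, the histone demethylase Kdm1a (18.9 and 27.2 CPM, log2 fold change 0.52, SE 0.13) and the histone deacetylase Hdac1 (31.3 and 39.1 CPM, 0.32, SE 0.10), and none was called with atorvastatin in edgeR, where 1 had an unadjusted p under 0.05, as compared to 1 called in DESeq2. Without the 8 libraries that lacked scarce transcripts Hdac1 was not called on WTD (edgeR, 0.20, adjusted p = 0.043). Of 9 genes of the pluripotent state, in which Gdf3 is best known, 1 passed the filter, and Pou5f1, Nanog and Sox2 had no count. That gene, Dppa3, had no count in Chow mice, a mean of 1.20 ± 1.29 CPM in WTD mice (SD, n = 16) and 0.601 ± 0.489 CPM in treated mice (SD, n = 16).

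Dppa3 is also a neighbour of Gdf3, 16.3 kb away on the opposite strand. Within 500 kb of Gdf3 the annotation holds 38 other genes, of which 16 were tested, and 7 of these were higher and 2 lower on WTD, where 17.5% and 16.0% of all genes were called. The nearest, Apobec1, which encodes the enzyme that edits apolipoprotein B mRNA, lies 2.96 kb from Gdf3 on the same strand, from 122577792 to 122602444 of chromosome 6. It had means of 45.3 CPM in Chow, 99.8 CPM in WTD and 80.4 CPM in treated mice, and was called in both comparisons (edgeR, log2 fold change 1.14, adjusted p = 1.45e-15 on WTD and -0.31, adjusted p = 0.0027 with atorvastatin). Its rho with Gdf3 was 0.76 in WTD and 0.55 in treated mice, a description over 16 mice each. That made Apobec1 one of the 19 genes (0.122%) above 0.5 in both groups. Further along, C3ar1, the receptor for complement C3a, was at 4.52, 27.7 and 18.0 CPM, the lectins Clec4a1, Clec4a3 and Clec4a2 and the mannose 6-phosphate receptor gene M6pr were also higher on WTD, and the pseudogenes Mug-ps1 and Gm10319 were lower. The rho of C3ar1 with Gdf3 was only 0.13 in WTD and 0.11 in treated mice.

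Of 22 genes within 500 kb of St18, 5 were tested, none was higher on WTD (17.5% of all genes) and 2 were lower (16.0%), Pcmtd1 (log2 fold change -0.57, SE 0.10) and the pseudogene Gm9826 (-1.04, SE 0.26). Pcmtd1 was higher with atorvastatin (edgeR, 0.32, SE 0.09, adjusted p = 0.0069). The nearest tested gene, Rb1cc1, a component of the autophagy machinery 211 kb away, was at 36.7, 36.1 and 35.2 CPM in Chow, WTD and treated mice (edgeR, adjusted p = 0.87 and 0.89).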

How the data were processed

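Liver RNA of 42 mice was sequenced as strand-specific, paired-end libraries of mRNA that had been captured on oligo-dT beads. According to the methods and the labels, the authors trimmed adapters with Trimmomatic, used STAR 2.5 for alignment of read pairs to GRCm38 and HTSeq 0.6.1p1 for counting by gene, and the deposited values are raw counts. The strand setting of the counting is not given in the sources used here. The single tables of the 42 mice were identical to the merged table, and no column belonged to no sample. Reads set aside as ambiguous (5.43% to 6.57%), outside exons or not uniquely aligned were left out. Symbols and positions came from GENCODE for GRCm38, which held 54409 of the 54446 genes.

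The main test was edgeR 4.0.16 (R 4.3.3; TMM factors, filterByExpr by group, robust quasi-likelihood fit over the 42 mice), with Benjamini-Hochberg adjustment over 15574 genes and a threshold of 0.01. Correlations used log2 CPM with a prior count of 0.5 within each WTD-fed group, with two-sided permutation tests of 100000 resamples in numpy 2.4.6. Slopes on Gdf3 or St18 were fitted in edgeR over the 32 WTD-fed mice with group as covariate. Alternatives were DESeq2 1.42.0, limma-voom 3.58.1 with sample weights, RLE and upper-quartile factors, other filters, the groups compared alone, leaving out the 8 libraries that lacked scarce transcripts, and leaving out each mouse. Tests were checked on simulated counts. Intervals of 0 counts used 3 counts and cover counting error only. Mice were separate animals but were housed in groups, and cages are not given, so p-values treat them as independent.

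Gdf3 and St18, the gene lists and the tests were chosen with earlier results of these data known. Named genes were the pair, the 12 genes with the highest and 4 with the lowest rho in WTD mice at a mean count of at least 50, up to 5 genes of each pathway list with the smallest p and the known receptors, coreceptors and relatives of Gdf3 and St18, up to 4 of the most abundant markers of each cell type, and tested neighbours within 500 kb. 1 gene of the target list is not reported here. Genes named outside that rule are marked as such where they appear.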

Additional observations from a re-analysis of the deposited data

Results flagged for a closer look

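In the 10 Chow mice, 4 of the marker sums that were set beside Gdf3 and St18 had 1 mouse far from the other 9, by Dixon's criterion. Over the 22 groups of values examined, chance gives about 1 in 20 such findings. The B cell sum reached 1422 CPM in 1 Chow mouse, where the next mouse had 54.4 and the median was 34.9 CPM. The neutrophil sum reached 29.1 CPM in 1 Chow mouse, where the next had 13.2 and the median was 11.0 CPM. The adipocyte sum reached 36.4 CPM in 1 Chow mouse, where the next had 21.0 and the median was 10.0 CPM. The islet sum was 0.238 CPM in 1 Chow mouse and 0 in the other 9. Neither Gdf3 nor St18 itself had such a mouse on chow.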

How the results depend on the processing

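The difference between treated and untreated mice kept its direction under all alternatives run, and the side of the threshold of 0.01 depended on the tool. Gdf3 passed in limma-voom (log2 fold change -0.58, adjusted p = 0.0046) and in edgeR on the groups compared alone (-0.73, adjusted p = 0.0072). The permutation test is not adjusted over genes, so its p is not held to that threshold. For Gdf3 it gave -0.62 (p = 0.0090) with all mice. Without the 8 libraries that lacked scarce transcripts it gave -0.70 (p = 0.0028, added after the data were seen). St18 passed in DESeq2 (-1.22, adjusted p = 0.0091), limma-voom (-1.19, adjusted p = 0.00093) and edgeR on the groups compared alone (-1.19, adjusted p = 0.0095). Its unadjusted permutation test gave -1.24 (p = 0.0018) with all mice and -1.20 (p = 0.0049, added likewise) without the 8 libraries. Leaving out 1 mouse gave -0.79 to -0.62 for Gdf3 and -1.35 to -1.05 for St18. Against chow, limma-voom put Gdf3 of treated mice at 5.43, where edgeR gave 4.73. Genes called with atorvastatin numbered 1106 of 15574 in edgeR, 2021 at a threshold of 0.05, 1329 in DESeq2 and 3145 in limma-voom. They numbered 1361 of 14595 in edgeR on the groups compared alone, and 913 to 1575 when 1 mouse was left out.

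The correlation of Gdf3 with St18 in WTD mice changed sign without the 8 libraries, from -0.16 to 0.084, and in treated mice it rose to 0.63 without TMM factors. Without the 8 libraries 3 genes followed Gdf3, as compared to 0, and 67 followed St18, as compared to 22. The correlation of Gdf3 with the macrophage sum in treated mice was 0.70 without TMM factors and 0.35 to 0.59 when 1 mouse was left out, with an unadjusted p under 0.05 without replicate 2 (0.59) or 7 (0.55). That of St18 in WTD mice was 0.62 without the 8 libraries and 0.35 to 0.57 when 1 mouse was left out, with an unadjusted p under 0.05 without replicate 7 (0.53) or 16 (0.57). The alternatives for the macrophage sums and the gene lists were added after the data were seen. Without TMM factors both measures of a correlation carry the factor left out, so those values are not an independent check. The cause of these shifts was not tested.

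List counts moved by over 1.5 times as follows. In DESeq2, Smad transducers called on WTD went from 1 to 2 (2 with RLE factors also), T cell markers from 0 to 1 and B cell markers from 1 to 0, and with atorvastatin the MYT list went from 0 to 1 and stellate cell genes from 5 to 9 (8 with RLE factors). Without the 8 libraries, calls with atorvastatin went from 8 to 5 in lipid-associated macrophages, 2 to 1 in Kupffer cells, 5 to 3 in stellate cells and 3 to 1 in endothelium. The totals of ligands and inhibitors called with atorvastatin did not move in that setting, but their directions did. Ligands went from 1 higher and 1 lower to 0 and 2, and inhibitors from 0 and 1 to 1 and 0. No paired analysis was possible because the replicate numbers were given in accession order and name different animals. Depth limits both genes on chow, where they rest on 63 and 19 counts in all, and the ratios to chow are imprecise to that extent.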

Other observations

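Some genes outside the naming rule had a rank correlation above 0.5 in size with Gdf3 in both WTD-fed groups, and are given here as values chosen after they were seen. Over all genes, 0.122% were above 0.5 and 0.109% below -0.5 in both groups. In WTD mice alone the shares were 4.69% and 5.31%, and in treated mice alone 2.42% and 2.38%. Tdo2, the tryptophan dioxygenase of hepatocytes, had a rho of -0.67 in WTD and -0.64 in treated mice, and means of 868 CPM in Chow, 590 CPM in WTD and 792 CPM in treated mice. Abcc2, a canalicular transporter of hepatocytes, had -0.62 and -0.59, with 574, 475 and 648 CPM. Cd14, a receptor for bacterial lipopolysaccharide on myeloid cells, had 0.55 and 0.56, with 5.52, 45.9 and 23.5 CPM, and it was the only one of 13 macrophage markers tested above 0.5 in both groups. Zfp513 had 0.64 and 0.67, and the nuclear RNA Neat1 had 0.63 and 0.58. With St18, Cyp4a14, a fatty acid hydroxylase of hepatocytes, had -0.73 in WTD and -0.76 in treated mice, with means of 1089 CPM in Chow, 296 CPM in WTD and 316 CPM in treated mice, and Mtus1 had -0.77 and -0.80. Below -0.5 with St18 were 0.469% of all genes in both groups, 3.31% in WTD mice alone and 11.7% in treated mice alone. Each rho is over 16 mice and carries no test here.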
